A study of Mus musculus with 24 samples.

Results

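Cultured mouse cortical neurons given the growth factor BDNF and the BET inhibitor IBET858 together for 2 h were compared with neurons given only the solvent. The 6 arrays of this comparison, 3 in each group, were taken by their titles from the 24 arrays of the series, and 18194 genes were tested. All cultures were primary neurons prepared from the cortex of mice at embryonic day E18 and kept for 1 week before treatment. The solvent group received DMSO, and the combined group received BDNF at 50 ng per ml with IBET858 at 1 µM. The other groups used for reference were IBET858 alone and BDNF alone for 2 h, at the same doses, and DMSO and the combination for 12 h. No allele or transgene is named for any group, and the labels do not say whether the 3 replicates came from separate cultures. The p-values therefore measure only the spread between these samples. Cultures from cortex can hold cells other than neurons.

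BDNF binds the receptor tyrosine kinase TrkB, encoded by Ntrk2, and through MAP kinase and other cascades switches on immediate-early genes, many of which encode transcription factors or regulators of synapses. BET proteins, such as those encoded by Brd2 and Brd3, bind acetylated histones and help bring the elongation factor P-TEFb, which releases paused RNA polymerase II, to promoters and enhancers. BET inhibitors displace these proteins from chromatin, and a rise of Hexim1, which encodes an inhibitor of P-TEFb, is a familiar mark of their action.

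Values are log2 signals from which the median of each probe set over the 24 arrays has been taken away, so 0 is the middle of the series and no value gives an abundance. Presence of a cell type's markers therefore could not be read, only differences in them. Within groups the arrays had standard deviations of 0.072 to 0.178 around their group mean, and the highest was DMSO replicate 1 at 2 h. Values without that array are given beside several of the counts and genes that it moved. The Gapdh control probes at the 5′ end minus those at the 3′ end lay between -0.038 and 0.017 on the DMSO arrays and between -0.107 and 0.019 on the combined arrays at 2 h. The same difference for Actb lay between -0.012 and 0.013 with DMSO and at -0.005, 0.13 and -0.022 with the combination, so combined replicate 2 stood highest. In RNA from whole cultures, fewer cells of a type and less RNA per cell cannot be told apart.

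The combination changed a large share of the genes, most of them by little. It raised 3379 genes (18.6%) and lowered 4218 (23.2%) at a limma adjusted p under 0.05, a limit used for every call here. Among these, 314 were over 2-fold higher and 331 over 2-fold lower. The median difference was 0.33 over the called higher genes and -0.41 over the called lower genes, against 0.03 over all genes. The 3 arrays of one group lay wholly above those of the other for 4581 genes (25.2%) in favour of the combination and for 4705 genes (25.9%) in favour of DMSO. Without DMSO replicate 1 there were 3089 higher and 4100 lower genes. Of the calls with all arrays, 2687 of the higher genes (79.5%) and 3732 of the lower genes (88.5%) were called again in the same direction, and 0 in the opposite one.

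The single treatments called fewer genes against the same DMSO arrays. BDNF alone gave 1781 higher (9.79%) and 3287 lower genes (18.1%), of which 205 and 99 were over 2-fold. IBET858 alone gave 1026 higher (5.64%) and 1686 lower genes (9.27%), of which 97 and 56 were over 2-fold. These comparisons share their control arrays, so their values are set side by side without a measure of likeness. Compared directly, the combination differed from BDNF alone in 2212 higher (12.2%) and 2716 lower genes (14.9%), and from IBET858 alone in 1172 higher (6.44%) and 2678 lower genes (14.7%).

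Of the 15 genes that rose furthest, 7 are known activity-induced genes of neurons. Arc encodes a postsynaptic protein that regulates glutamate receptor traffic, and it had the highest change of any named gene. Its values were -3.04, -2.37 and -2.47 on the DMSO arrays and 3.13, 3.03 and 3.24 on the combined arrays. Every combined array lay far above every DMSO array, and the rise was 5.76 ± 0.14 log2 units (54.2-fold, adjusted p = 3.62e-18; ± is the standard error of the model, n = 3 per group). BDNF alone gave 5.59 and IBET858 alone 1.42, and the combination was 0.17 ± 0.14 above BDNF alone (adjusted p = 0.383).

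Serpinb2 encodes an inhibitor of plasminogen activators. Its DMSO arrays were at -1.51, -1.69 and -1.93 and its combined arrays at 3.57, 2.93 and 3.48. The groups stood apart by 5.04 ± 0.17 (32.9-fold, adjusted p = 1.6e-15), and BDNF alone reached 3.09 while IBET858 alone gave 0.12 (adjusted p = 0.722). Plat encodes tissue plasminogen activator, a protease that neurons secrete. It went from -1.07, -0.99 and -0.99 with DMSO to 3.0, 2.81 and 3.23 with the combination, a rise of 4.03 ± 0.08 with no overlap. Both genes were higher with the combination than with BDNF alone, Serpinb2 by 1.95 ± 0.17 (adjusted p = 1.23e-08) and Plat by 1.58 ± 0.08 (adjusted p = 2.48e-12).

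Egr2 is a zinc finger transcription factor of the early growth response family. Its values were -1.58, -1.54 and -1.75 with DMSO and 2.77, 2.77 and 2.85 with the combination. The arrays of each group lay close together, and the rise was 4.42 ± 0.13 (21.4-fold). BDNF alone gave 4.50, and the difference between the combination and BDNF alone was -0.08 ± 0.13 (adjusted p = 0.709). Btg2 encodes an antiproliferative protein induced by growth factors and p53. It stood at -1.66, -1.10 and -1.17 with DMSO and at 3.12, 3.28 and 2.99 with the combination, 4.44 ± 0.14 higher, without overlap. The stress-response gene Gadd45b rose by 3.85 ± 0.09 and the immediate-early gene Ier2 by 3.52 ± 0.09.

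**Figure D1:**
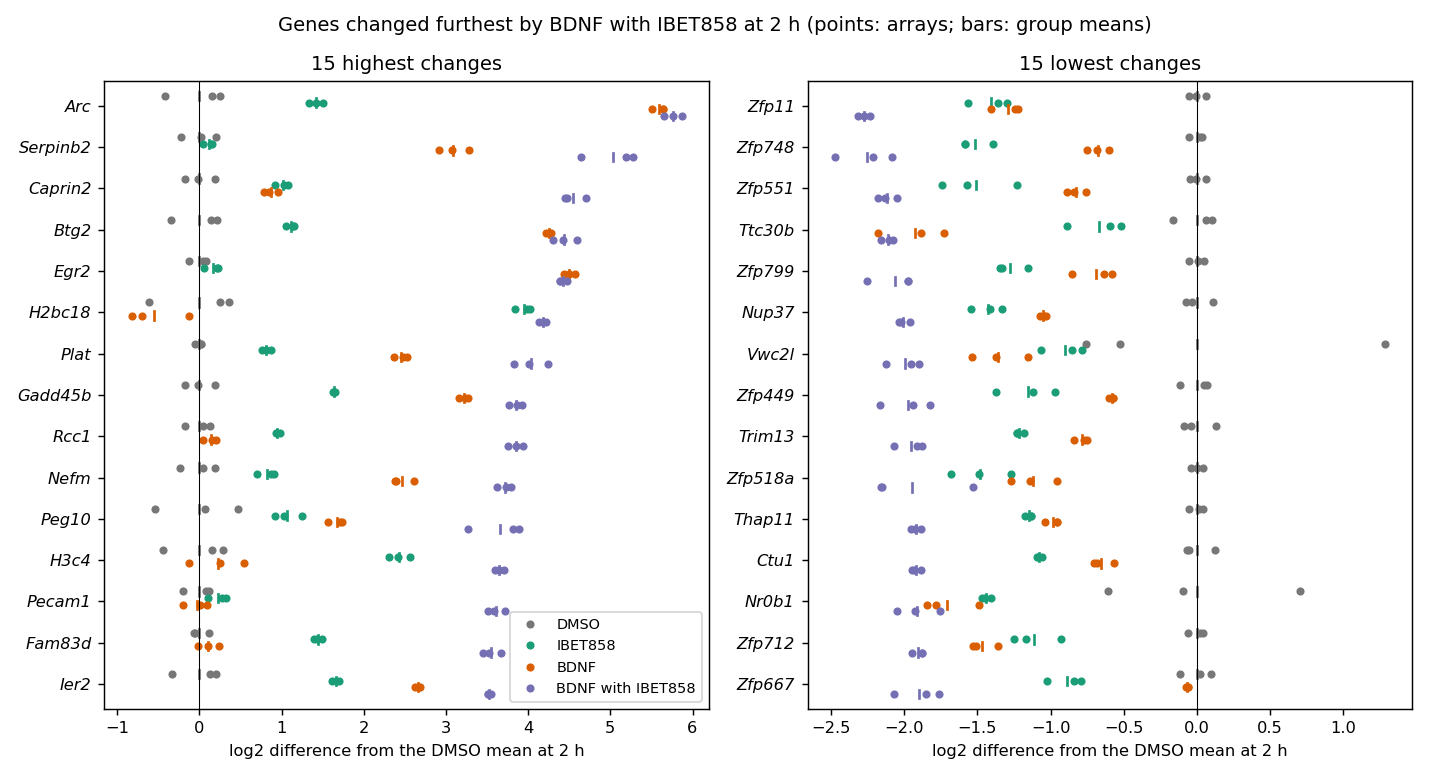
Values of the 15 genes that rose furthest (left) and the 15 that fell furthest (right) with BDNF and IBET858 at 2 h, as log2 differences from the DMSO mean at 2 h. Each point is 1 array of DMSO, IBET858, BDNF or the combination, and short bars are group means. Arc, Btg2 and Egr2 lie close together with BDNF alone and the combination, H2bc18 with IBET858 alone and the combination, while Caprin2, Rcc1, Pecam1 and Fam83d stand high with the combination and far lower with either agent; Vwc2l and Nr0b1 show DMSO arrays far apart.

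Promoter windows of 300 bases were available from RefSeq (build GRCm38.p6) for 14453 of the tested genes, and they were searched on both strands. The cAMP response element was sought as TGACGTCA, a target of the factor CREB. The AP-1 site was sought as TGANTCA, where N is any base. The TATA box was sought as TATAAA and the CCAAT box by the letters of its name. The CArG box, which binds serum response factor, was sought as CCWWWWWWGG, where W is A or T. A gene with several starts has several windows, 18110 in all, and a gene was counted for a motif if any of its windows held it. Of the 5 windows of Egr2, 4 held a CArG box and 3 of these also a CCAAT box, and 1 of the 3, which overlap, is shown for that reason. The window of Btg2 is shown because it holds a cAMP response element. Both were picked after the values were seen. Capitals mark a match to any of the searched motifs on either strand, and a match is a description of the letters only. Egr2 is at chr10:67537619-67537918 on the plus strand and Btg2 at chr1:134079106-134079405 on the minus strand.
Egr2: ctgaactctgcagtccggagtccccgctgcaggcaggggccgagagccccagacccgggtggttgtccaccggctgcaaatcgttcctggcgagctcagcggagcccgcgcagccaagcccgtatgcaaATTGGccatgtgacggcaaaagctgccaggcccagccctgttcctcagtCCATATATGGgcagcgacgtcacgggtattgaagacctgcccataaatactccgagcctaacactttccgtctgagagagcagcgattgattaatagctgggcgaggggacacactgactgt
Btg2: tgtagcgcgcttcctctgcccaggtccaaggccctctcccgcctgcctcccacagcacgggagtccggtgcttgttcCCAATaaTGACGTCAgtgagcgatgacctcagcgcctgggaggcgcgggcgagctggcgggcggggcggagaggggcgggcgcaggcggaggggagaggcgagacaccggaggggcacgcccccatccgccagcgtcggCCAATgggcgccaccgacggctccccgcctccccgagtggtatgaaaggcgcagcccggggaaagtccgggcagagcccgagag

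The Egr2 window shown holds a CArG box and a CCAAT box, and the Btg2 window a cAMP response element and 2 CCAAT boxes. A CArG box was found in 2 of 24 genes with a window on the list of activity-induced transcription factors (8.33%), in 3.67% of genes called over 2-fold higher and in 1.58% of all genes. A TATA box was found in 22.0% of genes over 2-fold higher, 8.49% of those over 2-fold lower and 11.5% of all genes. The cAMP response element was found in 3.27%, 3.69% and 2.92% of these 3 sets, and the AP-1 site in 6.53%, 4.43% and 7.54%.

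Activity-induced transcription factors rose nearly throughout. Of 34 measured, 29 rose and 1 fell, with a median of 1.47 against 0.03 over all genes. Over all genes 18.6% rose and 23.2% fell, and list counts for the combination at 2 h are to be read against these shares. The 4 furthest were Egr2, Ier2, Klf2, a Krüppel-like factor (3.22 ± 0.08), and Junb, a partner in the AP-1 complex (3.14 ± 0.08). Egr1 rose by 2.71 ± 0.09 and Npas4, which is induced by calcium entry, by 2.28 ± 0.21, or 1.91 without DMSO replicate 1. Fos was at -0.18, 0.01 and 0.01 with DMSO and at 1.10, 1.14 and 1.10 with the combination, 1.16 ± 0.07 higher. The DMSO arrays of Fos lay near the middle of the series, whereas those of Egr1, at -1.98, -1.56 and -1.52, lay well below it. On the DMSO arrays at 12 h Fos was lower, at -1.35, -1.02 and -0.96, and so was Egr1, at -2.72, -2.52 and -2.60. Junb went from -0.66, -0.29 and -0.34 to -1.89, -1.79 and -1.87, while Klf2 overlapped between the times. The 2 h rises of Fos, Egr1 and Junb are thus counted from a higher DMSO level than at 12 h. Why it was higher was not tested. The 1 member that fell was Cebpd (-0.29, adjusted p = 0.0188), named after its value was seen. Without DMSO replicate 1 it did not pass the test (-0.19, adjusted p = 0.114).

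Against this list, BDNF alone gave 33 higher and 0 lower members (median 1.43) and IBET858 alone 17 higher and 6 lower (median 0.31). The shares of all genes were 9.79% higher and 18.1% lower with BDNF alone, and 5.64% and 9.27% with IBET858 alone. On DMSO replicate 1 the list lay at a median of -0.215 from the mean of the other arrays of its group. Every other array, measured in the same way, lay between -0.148 and 0.175, and this measure is used for the lists below. The part of DMSO replicate 1 in the counts was measured by leaving it out. Without it, 25 members rose and 1 fell, with a median of 1.52. The 1 that then fell was Crem (-0.30, adjusted p = 0.0017), also named after its value was seen, which was at -0.12 with all arrays (adjusted p = 0.35). Myc, a growth-promoting transcription factor, was at -0.63, 0.02 and -0.12 with DMSO and at 0.14, 0.14 and 0.10 with the combination. It passed the test with all arrays (0.37 ± 0.11, adjusted p = 0.00888) and not without DMSO replicate 1 (0.18, adjusted p = 0.0602).

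Effector genes of neuronal activity, which act at synapses, in secretion or in growth control, showed 29 of 36 members higher and 0 lower, with a median of 1.76. Without DMSO replicate 1 the counts were 29 and 1, the 1 being Bdnf. The furthest were Arc, Serpinb2, Btg2 and Plat. Rrad, a small GTPase that restrains calcium channels, also rose (1.68 ± 0.11), far less than with BDNF alone (4.04). Cxcr4, a chemokine receptor, was at 0.19, -0.01 and 0.14 with DMSO and at 0.40, -0.19 and 0.22 with the combination. Its groups overlapped and differed by 0.04 ± 0.16 (adjusted p = 0.849), although BDNF alone gave 2.95. IBET858 alone gave -0.87 (adjusted p = 0.00044), and the combination stood 0.91 ± 0.16 above IBET858 alone (adjusted p = 0.000199).

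The Bdnf transcript itself was a different case. It was at -1.36, 0.14 and 0.34 with DMSO and at -0.46, -0.48 and -0.49 with the combination. DMSO replicate 1 lay below and the other DMSO arrays above all combined arrays. With all arrays the difference was -0.19 ± 0.26 (adjusted p = 0.586), and without that array it was -0.72 (adjusted p = 0.000145). BDNF alone gave 0.88, 0.93 and 0.86, and against these arrays the combination was lower by -1.37 ± 0.26 (adjusted p = 0.000332). The 2 Bdnf probe sets disagreed in direction against DMSO, at -0.49 and 0.12.

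Among the other 8 neurotrophins and their receptors, Ngfr, the p75 receptor, rose by 0.37 ± 0.08 and Ntrk2 by 0.29 ± 0.06. The 8 probe sets of Ntrk2 ran from -0.20 to 1.94 and disagreed in direction. The sorting receptor gene Sorcs3 was at 0.36 ± 0.15 (adjusted p = 0.0574). With all arrays 2 of the 9 members were called higher (22.2%, near the 18.6% of all genes) and 0 lower (23.2% of all genes), with a median of 0.07.

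Feedback regulators of MAP kinase signalling had 14 of 25 members higher (56.0%, against 18.6% of all genes). Another 5 were lower (20.0%, near the 23.2% of all genes), and the median was 0.56. Dusp5, a phosphatase of nuclear ERK, was at -1.73, -0.96 and -0.88 with DMSO and at 1.96, 1.92 and 1.71 with the combination. Its groups stood apart by 3.05 ± 0.16. Errfi1, an inhibitor of EGF receptors, rose by 2.68 ± 0.10, the phosphatase gene Dusp1 by 2.63 ± 0.21 (2.18 without DMSO replicate 1) and Dusp14 by 2.26 ± 0.09. DMSO replicate 1 lay at a median of -0.307 over this list (other arrays -0.153 to 0.184). Without it the median was 0.33, with 13 higher and 6 lower.

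Of 19 genes tied to BET proteins and P-TEFb, 4 rose (21.1%, near the 18.6% of all genes). A further 8 fell (42.1%, against 23.2% of all genes), and the median was -0.07. Hexim1 was at -1.38, -0.94 and -0.88 with DMSO and at 1.32, 1.37 and 1.30 with the combination. It rose by 2.40 ± 0.10 (5.27-fold) with no overlap. IBET858 alone gave 2.48 and BDNF alone -0.48. The difference between the combination and IBET858 alone was -0.08 (adjusted p = 0.663). Its relative Hexim2 fell (-0.70 ± 0.11).

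Brd2, which encodes a BET protein, was at -0.67, -0.57 and -0.46 with DMSO and at 0.91, 0.92 and 0.91 with the combination. It rose by 1.48 ± 0.06, more than with IBET858 alone (0.70) or BDNF alone (0.41). Brd3 was at 0.00 ± 0.05 (adjusted p = 0.957), and its 4 probe sets disagreed in direction. Ell2, a subunit of the super elongation complex, rose by 0.72 ± 0.07. Cdk9, the kinase of P-TEFb, and its cyclin genes Ccnt1 and Ccnt2 fell, at -0.57, -0.35 and -0.55; these 3 were named after their values were seen.

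Histone genes rose with the combination, 14 of 19 measured, while 2 fell (H2aj and H2bc21), and the median was 1.05. H2bc18, a gene for histone H2B, was at -2.96, -2.09 and -1.99 with DMSO and at 1.87, 1.83 and 1.79 with the combination. DMSO replicate 1 was the lowest array and the groups did not overlap, with a rise of 4.18 ± 0.23 (18.1-fold), or 3.87 without that array. IBET858 alone gave 3.95 and BDNF alone -0.55 (adjusted p = 0.078), so for this gene the combined arrays lay near those of IBET858 alone, 0.23 apart (adjusted p = 0.543). The histone H3 gene H3c4 was at -1.67, -0.94 and -1.08 with DMSO and at 2.37, 2.41 and 2.48 with the combination. It rose by 3.65 ± 0.17 and stood 1.22 above IBET858 alone (adjusted p = 1e-05).

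H3c11 (2.16 ± 0.13) and H3f3b, which encodes the replacement histone H3.3 (2.15 ± 0.10), came next. Over the list BDNF alone gave 1 higher and 5 lower members (median 0.04) and IBET858 alone 13 higher and 0 lower (median 0.62). The shares of all genes were 9.79% higher and 18.1% lower with BDNF alone, and 5.64% and 9.27% with IBET858 alone. Copies of a histone type resemble each other, so a probe set may pick up more than its named gene. Without DMSO replicate 1, 14 rose and 1 fell, with a median of 0.95, and H2aj no longer passed the test (-0.16, adjusted p = 0.0336 with all arrays, and -0.12, adjusted p = 0.119 without).

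The promoter windows of H2bc18 and H3c4 are shown because these are the histone genes among the 15 furthest rises and because CCAAT boxes recur in them. H2bc18 is at chr3:96269450-96269749 and H3c4 at chr13:23575513-23575812, both on the plus strand of GRCm38.p6, from RefSeq, with capitals as above.
H2bc18: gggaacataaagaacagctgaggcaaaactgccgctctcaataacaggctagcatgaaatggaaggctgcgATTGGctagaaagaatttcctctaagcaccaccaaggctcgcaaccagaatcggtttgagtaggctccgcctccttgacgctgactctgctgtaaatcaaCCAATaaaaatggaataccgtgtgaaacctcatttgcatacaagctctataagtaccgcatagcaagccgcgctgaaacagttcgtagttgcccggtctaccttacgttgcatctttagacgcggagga
H3c4: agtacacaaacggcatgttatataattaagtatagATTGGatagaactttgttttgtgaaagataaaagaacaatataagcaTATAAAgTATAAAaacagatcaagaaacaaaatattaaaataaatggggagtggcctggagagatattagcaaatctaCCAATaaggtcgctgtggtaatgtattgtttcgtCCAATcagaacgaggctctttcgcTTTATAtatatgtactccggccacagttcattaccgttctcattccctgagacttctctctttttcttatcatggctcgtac

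The H2bc18 window holds 2 CCAAT boxes, and the H3c4 window 3 CCAAT boxes and 3 TATA boxes. A CCAAT box was found in 14 of 16 histone genes with a window (87.5%), in 57.1% of genes over 2-fold higher, in 43.5% of those over 2-fold lower and in 42.0% of all genes.

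Heat shock genes rose in 12 of 19 cases and fell in 0, with a median of 0.37. Dnajb1, a co-chaperone of HSP70, was at -0.56, -0.35 and -0.33 with DMSO and at 2.66, 2.72 and 2.70 with the combination. The arrays of each group were tight, and the rise was 3.11 ± 0.06, against 2.09 with BDNF alone and 0.74 with IBET858 alone. The HSP70 genes Hspa1b and Hspa1a rose by 3.14 ± 0.12 and 2.74 ± 0.09, but their transcripts are nearly identical and may not be told apart. Hspb8, a small heat shock protein, rose by 1.78 ± 0.12, where BDNF alone gave 0.23 (adjusted p = 0.18) and IBET858 alone 0.26 (adjusted p = 0.156).

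Of 31 stress genes of the endoplasmic reticulum and of amino acid shortage, 19 rose and 2 fell, with a median of 0.43. Ddit3, which encodes the stress transcription factor CHOP, was at -2.03, -1.55 and -1.30 with DMSO and at 1.41, 1.49 and 1.22 with the combination, 3.0 ± 0.11 higher without overlap. The chaperone gene Dnajb9, the phosphatase subunit gene Ppp1r15a and the nutrient sensor gene Sesn2 each rose by 1.43. Without DMSO replicate 1 their rises were 1.24, 1.10 and 1.12. DMSO replicate 1 lay at a median of -0.384 over this list, outside the range of -0.054 to 0.198 of the other arrays. Without it the median was 0.26, with 17 higher and 3 lower.

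The lists that follow are to be read against 18.6% higher, 23.2% lower and a median of 0.03 over all genes. p53 targets were mixed, with 4 of 16 higher, 5 lower and a median of -0.08. Besides Btg2, the cell cycle inhibitor gene Cdkn1a rose by 2.22 ± 0.07 and Pmaip1, a death-promoting BCL2 relative, by 1.76 ± 0.10. Cell cycle genes were mixed too, with 10 of 34 higher, 5 lower and a median of -0.04. DMSO replicate 1 lay at a median of 0.139 over this list (other arrays -0.083 to 0.071). Without it the counts were 10 and 4, and the median was 0.09. Ccne2, a cyclin of S phase entry, rose by 1.27 ± 0.14 and the replication clamp gene Pcna by 1.13 ± 0.05, whereas Mcm4 (-0.77 ± 0.13) and the mitotic cyclin Ccnb2 (-0.64 ± 0.10) fell. Of 10 ID and HES/HEY repressors, 6 rose and 2 fell (median 0.43), led by Id4 (2.07 ± 0.09), an inhibitor of basic helix-loop-helix factors, and Id2 (1.10 ± 0.09). On these DMSO replicate 1 was at 0.243 (other arrays -0.127 to 0.062), and without it 7 rose and 1 fell.

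Of 27 genes of NF-kappaB signalling and inflammation, 10 rose and 4 fell, with a median of 0.15. Rela, the p65 subunit, was at -0.15, 0.03 and 0.11 with DMSO and at -0.98, -0.94 and -0.98 with the combination. It was lower by -0.96 ± 0.06. BDNF alone gave 0.48 and IBET858 alone -0.82, and the combination was -0.14 from IBET858 alone (adjusted p = 0.091). In cholesterol synthesis 5 of 20 members rose and 6 fell (median -0.11), with Insig1 (1.20 ± 0.07) and Idi1 (1.16 ± 0.10) higher and Mvd lower (-0.56 ± 0.12). On these DMSO replicate 1 was at 0.185 (other arrays -0.149 to 0.048). Without it 5 rose and 5 fell, with a median of 0.02. Clock genes gave 4 higher and 5 lower of 19, shares near those of all genes, with Per2 at 0.66 ± 0.07 and Clock at -0.46 ± 0.05. DMSO replicate 1 lay at a median of -0.21 over this list (other arrays -0.064 to 0.173). Without it the counts were 3 and 6, and the median went from 0.05 to -0.11. Of 39 cytosolic ribosomal protein genes, 6 rose and 1 fell, their median was 0.02 and their range -0.13 to 0.44.

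**Figure D2:**
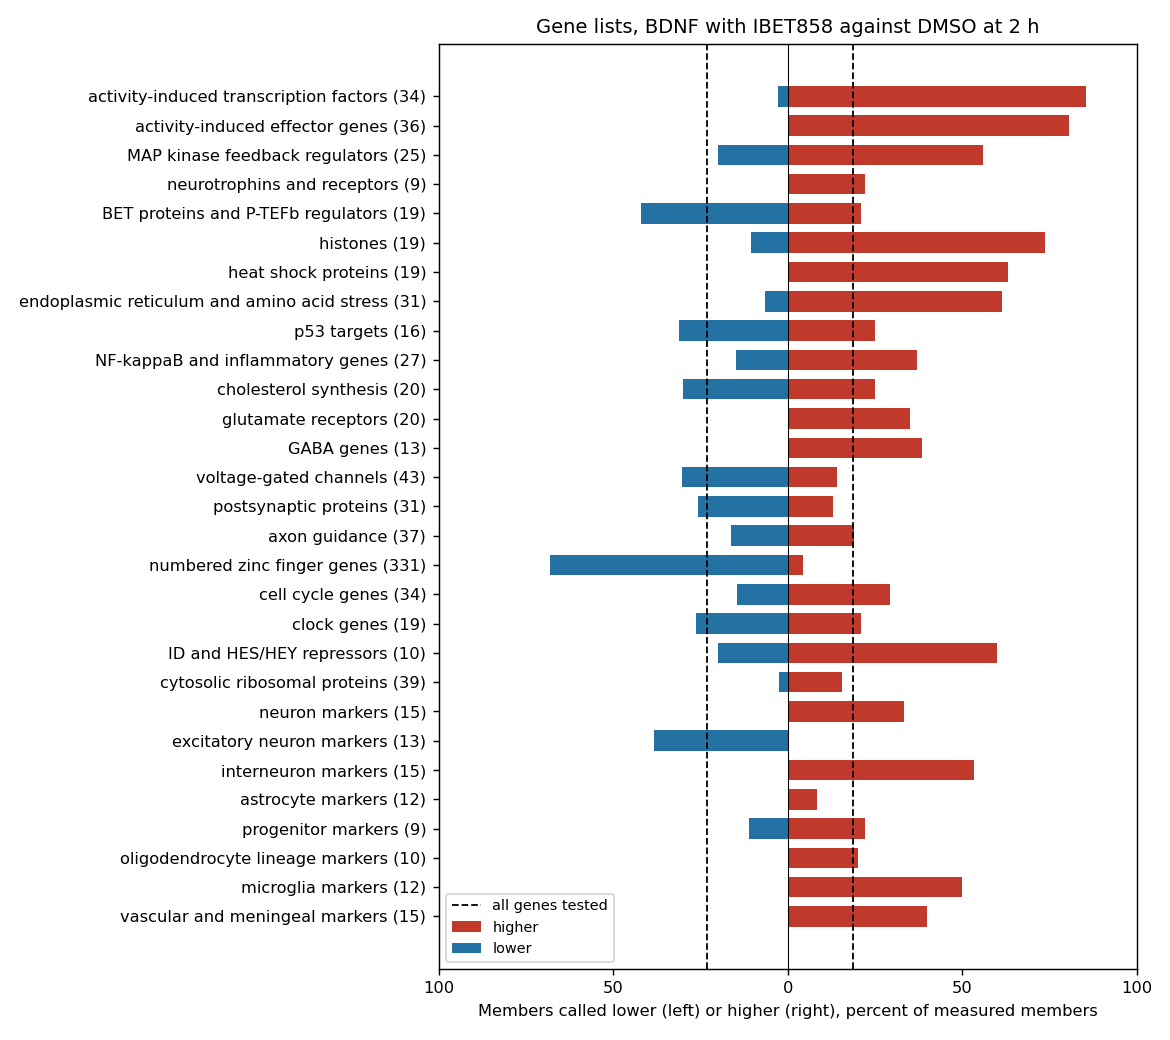
Share of the measured members of 29 gene lists called higher (red, right) or lower (blue, left) with BDNF and IBET858 against DMSO at 2 h, in percent, with the number measured in brackets. Dashed lines mark all genes tested, 18.6% higher and 23.2% lower. Activity-induced transcription factors reach 85.3% higher and histones 73.7% higher, and numbered zinc finger genes reach 68.3% lower.

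Genes that fell did so by less than the furthest rises. Of the 15 lowest, 8 are zinc finger genes. Zfp11 was at 0.44, 0.56 and 0.49 with DMSO and at -1.78, -1.82 and -1.74 with the combination. Each group was tight and the difference was -2.27 ± 0.10 (4.84-fold lower). BDNF alone gave -1.29 and IBET858 alone -1.41. Zfp748 was at 0.29, 0.38 and 0.36 with DMSO and at -1.74, -1.87 and -2.13 with the combination, -2.26 ± 0.12 without overlap, and here IBET858 alone (-1.52) was further from DMSO than BDNF alone (-0.68).

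Zinc finger genes were then counted as a set by their numbered names, a rule that does not sort them by type of zinc finger. Of 331 numbered zinc finger genes, 226 fell and 14 rose (68.3% and 4.23%), and the median was -0.48. Those over 2-fold lower made up 69 of the 331 (20.8%), against 1.82% of all genes, and 2 were over 2-fold higher. The quartiles of the set were -0.88 and -0.13, against -0.18 and 0.18 over all genes. The median of the members on each array was 0.05, 0.09 and 0.09 with DMSO and -0.35, -0.38 and -0.37 with the combination. The combined arrays thus all lay below the DMSO arrays, and without DMSO replicate 1 the counts were 225 lower and 12 higher.

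BDNF alone lowered 184 and raised 17 of these genes (median -0.31), and IBET858 alone lowered 142 and raised 12 (median -0.22). Over all genes BDNF alone lowered 18.1% and raised 9.79%, and IBET858 alone lowered 9.27% and raised 5.64%. Zfp667 was the furthest from its value with BDNF alone among the 8. It stood at 0.36, 0.57 and 0.49 with DMSO and at -1.29, -1.60 and -1.38 with the combination, with no overlap. The difference was -1.89 ± 0.12, while BDNF alone gave -0.06 (adjusted p = 0.755) and IBET858 alone -0.88. Many zinc finger genes lie in clusters of similar copies, so a probe set may read a neighbour as well.

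**Figure D3:**
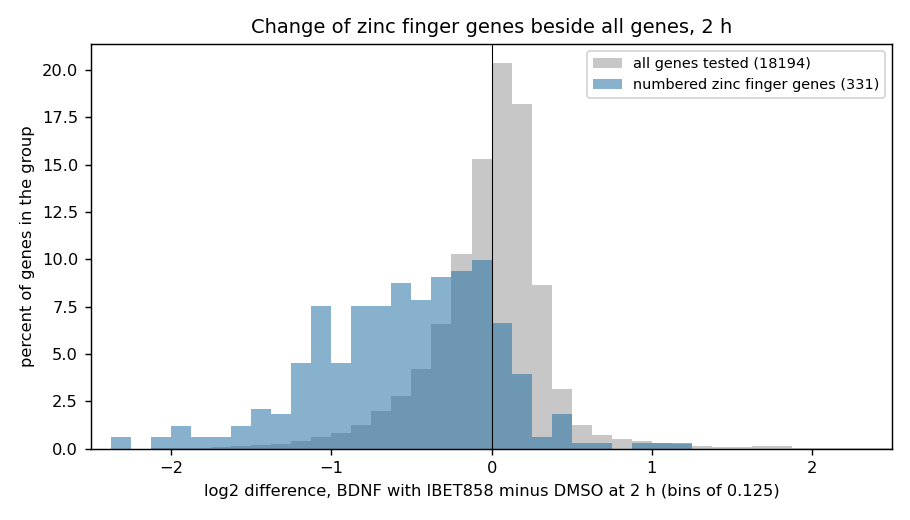
Distribution of log2 differences between the combination and DMSO at 2 h for 331 numbered zinc finger genes (blue) and all 18194 genes (grey), in percent of each group per bin. The axis is drawn from -2.5 to 2.5 and higher values are not shown. The zinc finger genes have a median of -0.48 and lie mostly to the left of all genes.

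The other genes among the 15 lowest serve varied functions. Ttc30b, which takes part in transport within cilia, had a difference of -2.11 ± 0.11. The nuclear pore gene Nup37 (-2.0 ± 0.09), the ubiquitin ligase gene Trim13 (-1.95 ± 0.07), the DNA-binding factor gene Thap11 (-1.93 ± 0.05) and Ctu1, which modifies transfer RNA (-1.92 ± 0.06), fell as well. Ttc30b was lower with BDNF alone as well (-1.93), and the combination was -0.18 ± 0.11 from it (adjusted p = 0.251). Vwc2l, a secreted protein related to BMP antagonists, was at 2.47, 0.66 and 0.43 with DMSO and at -0.77, -0.94 and -0.71 with the combination. DMSO replicate 1 was far above the other arrays, so the fall of 1.99 became 1.35 without it. The nuclear receptor gene Nr0b1 fell by 1.91 with all arrays and by 1.56 without it.

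Genes of neuronal identity and excitability gave small counts, with single members far from DMSO. Of 13 excitatory neuron markers, 5 fell and 0 rose, with a median of -0.19. Without DMSO replicate 1, 7 fell and 0 rose, with a median of -0.25. Tbr1, a T-box factor of deep-layer neurons, was at 0.33, 0.20 and 0.19 with DMSO and at -1.29, -1.21 and -1.12 with the combination. It was lower by -1.45 ± 0.14 with no overlap, and lower with BDNF alone (-1.26), whereas IBET858 alone gave 0.01 (adjusted p = 0.979). Neurod6 (-1.31 ± 0.14), Neurod1 (-0.95 ± 0.11) and Emx1 (-0.68 ± 0.09), all transcription factors of the excitatory lineage, fell too.

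Voltage-gated channels had 13 of 43 members lower and 6 higher, with a median of -0.04. Kcns2, a silent potassium channel subunit, was at 0.39, 0.69 and 0.74 with DMSO and at -0.93, -0.99 and -0.96 with the combination. The difference was -1.56 ± 0.09, against 0.35 with BDNF alone and -1.14 with IBET858 alone. Kcnf1, another silent subunit, was at 0.09, 0.25 and 0.23 with DMSO, at 1.95, 1.86 and 1.83 with BDNF alone and at -0.46, -0.57 and -0.58 with the combination. IBET858 alone gave -0.62, -0.64 and -0.58. The combined arrays thus lay beside those of IBET858 alone (0.08 apart, adjusted p = 0.452) and -2.42 ± 0.06 from BDNF alone (adjusted p = 7.24e-17). Kcna4, an A-type potassium channel, was at 1.10 with BDNF alone, -0.79 with IBET858 alone and -0.79 ± 0.11 with the combination, relative to DMSO.

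Postsynaptic proteins had 4 of 31 members higher and 8 lower (median -0.06). Homer1, a scaffold with an activity-induced short form, rose by 1.83 ± 0.06, and its 6 probe sets ran from 0.79 to 4.11. Neto2, an auxiliary protein of kainate receptors, rose by 1.19 ± 0.09, and the adhesion protein genes Lrrtm4 (-1.32 ± 0.32, or -0.76 without DMSO replicate 1) and Lrrtm1 (-1.08 ± 0.10) fell. Glutamate receptors had 7 of 20 members higher and 0 lower (median 0.13), led by the kainate receptor gene Grik1 (0.70 ± 0.16), and GABA genes 5 of 13 and 0 (median 0.15), led by Gad2 (0.52 ± 0.11). Without DMSO replicate 1 these became 5 and 0, and 2 and 2. Axon guidance genes gave 7 higher and 6 lower of 37 (median -0.05), with the ephrin gene Efnb2 at 0.87 ± 0.10.

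Neuron markers rose in 5 of 15 cases and fell in 0, and 2 neurofilament genes led them. Nefm, the medium chain, was at -2.17, -1.89 and -1.75 with DMSO and at 1.80, 1.68 and 1.85 with the combination. The rise was 3.72 ± 0.10, and that of Nefl, the light chain, was 3.07 ± 0.11. The list's median was 0.08, near that of all genes.

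Markers of other cell types were counted beside these. Of 12 microglia markers 6 rose and 0 fell, with a median of 0.23, and the median of the members on each array was 0.03, -0.01 and 0.02 with DMSO and 0.18, 0.43 and 0.22 with the combination. Cd68, a lysosomal protein of phagocytes, rose furthest (1.69 ± 0.09), with 1.04 for IBET858 alone. Of 15 vascular and meningeal markers 6 rose and 0 fell (median 0.19), with Pecam1 at 3.60 ± 0.12 and Kdr, the VEGF receptor, next at 0.49 ± 0.13.

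Of 15 interneuron markers 8 rose and 0 fell (median 0.25), led by Dlx5, a homeobox factor (1.07 ± 0.11). DMSO replicate 1 lay at a median of -0.538 on these markers (other arrays -0.114 to 0.241), and without it 6 rose and 1 fell. Of 12 astrocyte markers 1 rose, Sox9, a glial transcription factor (2.71 ± 0.14, with 3 probe sets from 0.32 to 3.90), and 0 fell, with a median of -0.10. On these DMSO replicate 1 was at 0.553, against -0.249 to 0.392 on the other arrays. Progenitor markers gave 2 higher and 1 lower of 9 (median 0.16), and oligodendrocyte lineage markers 2 higher and 0 lower of 10 (median 0.05), against 18.6% and 23.2% of all genes. Whether the share of these cells moved, and its part in the results above, was not tested.

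Whether the combined change differed from the sum of the single changes on the log2 scale was tested as an interaction. It lay above the sum for 566 genes (3.11%) and below it for 963 (5.29%), and over all genes the median was 0.02. Pecam1, an adhesion protein of endothelial cells, was furthest above the sum. It was at 0.01, -0.03 and -0.31 with DMSO, at 0.16, 0.22 and -0.01 with IBET858 alone, at -0.31, -0.02 and -0.10 with BDNF alone and at 3.48, 3.61 and 3.40 with both. The first 3 groups lay together and the combined arrays far above them, an interaction of 3.40 ± 0.17 (adjusted p = 3.09e-11).

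Rcc1, the exchange factor of the GTPase Ran, was at -1.14, -0.83 and -0.91 with DMSO and at 2.80, 2.89 and 2.98 with the combination. BDNF alone gave 0.14 and IBET858 alone 0.95, so the rise of 3.85 ± 0.07 stood above their sum by 2.76 ± 0.10. Caprin2, an RNA-binding protein, went from -0.75, -1.12 and -0.96 to 3.53, 3.51 and 3.76. Its rise of 4.54 ± 0.08 was the third highest of all named genes and exceeded the sum by 2.66 ± 0.12.

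Tmem54, a membrane protein, was 2.94 ± 0.15 higher with the combination and 2.68 ± 0.22 above the sum. Zmym1, a zinc finger protein, had an interaction of 2.15 ± 0.12. BDNF alone gave -1.27, while with both agents it was 0.64 ± 0.09 above DMSO. Among the 15 furthest rises Fam83d, a protein of the mitotic spindle, had an interaction of 2.00. Pecam1, Rcc1, Caprin2, Tmem54, Zmym1 and Fam83d were each read by 1 probe set, so no other probe set could be compared.

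Rrad was furthest below the sum. It stood at -1.0, -0.83 and -1.05 with DMSO, at 3.20, 2.87 and 3.19 with BDNF alone and at 0.95, 0.52 and 0.71 with both. The combined arrays lay between the other 2 groups, with an interaction of -2.42 ± 0.15 (adjusted p = 6.37e-10). For Ier5l, a relative of the immediate-early gene Ier5, IBET858 alone gave 1.30, BDNF alone 2.45 and the combination 1.37 ± 0.08, an interaction of -2.38 ± 0.12. For Cxcr4 it was -2.04 ± 0.23.

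Tmem74, a lysosomal membrane protein linked to autophagy, was raised 2.28 by BDNF alone, and with the combination it fell by 0.40 from DMSO (interaction -1.95 ± 0.14). Rasl11a, a small GTPase-like protein, rose by 2.62 with BDNF alone and by 1.03 ± 0.10 with both (interaction -1.92 ± 0.14). Without DMSO replicate 1 these 10 interactions kept their direction and their call, and Rrad then had -2.40 and Pecam1 3.35.

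**Figure D4:**
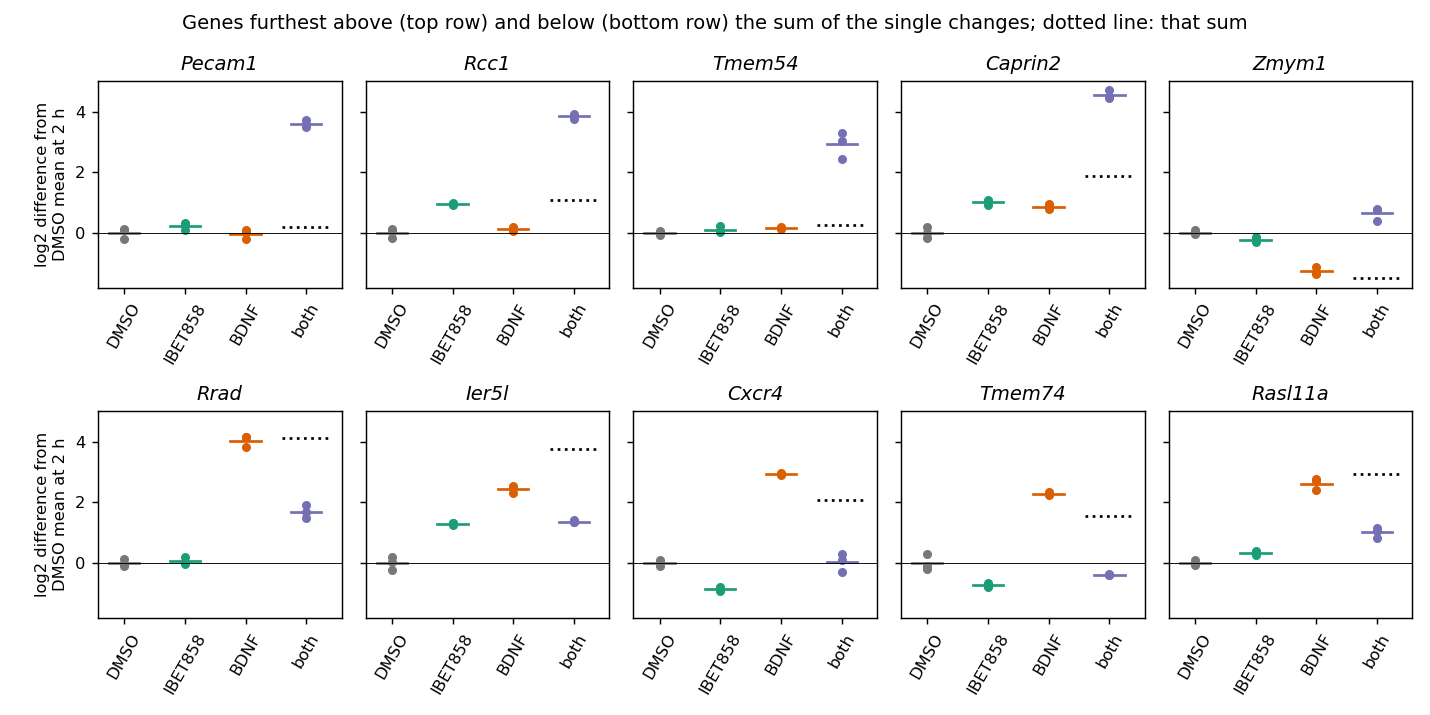
Values on the 12 arrays at 2 h of the 5 genes furthest above (top row) and the 5 furthest below (bottom row) the sum of the single changes, as log2 differences from the DMSO mean. Points are arrays, solid bars group means, and the dotted line is the sum of the IBET858 and BDNF means. Pecam1 and Tmem54 are near 0 with either agent and high with both, while Rrad and Cxcr4 are high with BDNF alone and far lower with both.

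By list, the interaction of activity-induced transcription factors lay below 0 for 13 of 34 members and above it for 0, with a median of -0.26, against 5.29% below and 3.11% above over all genes. Nab2, a corepressor of EGR factors, was at -1.84, Klf10 at -1.45 and Egr1 at -1.22; the first 2 were named after their values were seen. Effector genes had 12 of 36 below and 6 above the sum (median -0.39), with Arc at -1.25 and Serpinb2 at 1.83. MAP kinase feedback regulators had 9 of 25 below and 1 above (median -0.29). Heat shock genes had 5 of 19 above and 0 below (median 0.08), and histones 6 of 19 above and 1 below (median 0.26). Zinc finger genes had 33 of 331 above and 26 below (median 0.07), the latter a share near that of all genes.

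At 12 h the combination was set against DMSO on 6 other arrays. It raised 4129 genes (22.7%) and lowered 5516 (30.3%), 726 and 1007 of them over 2-fold. Of the genes called higher at 2 h, 1372 were called higher at 12 h (40.6% of the 2 h calls and 33.2% of the 12 h calls), and 264 were called lower. Of those called lower at 2 h, 2236 were lower again (53% and 40.5%), and 952 were higher. Of the 314 genes over 2-fold higher at 2 h, 281 (89.5%) were called higher at 12 h and 8 lower. Of the 331 over 2-fold lower, 238 (71.9%) were called lower and 24 higher.

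The difference between the 2 times, each against its own DMSO arrays, was called for 3988 genes upwards (21.9%) and 4464 downwards (24.5%). Pecam1 returned furthest towards DMSO. It was at -0.01, -0.15 and -0.20 on the DMSO arrays at 12 h and at -0.03, 0.02 and 0.04 on the combined arrays, 0.13 apart (adjusted p = 0.414). The change between the times was -3.48 ± 0.17. Ckmt2, a mitochondrial creatine kinase, rose by 3.17 ± 0.12 at 2 h and was at 0.17 at 12 h (adjusted p = 0.271). Cntn6, a neuronal adhesion protein, was at -0.01 ± 0.13 at 2 h and fell by 3.08 at 12 h.

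Rgs13, a regulator of G protein signalling, and Cadps2, a priming factor for dense-core vesicles, rest partly on DMSO replicate 1. For Rgs13 the DMSO arrays at 2 h were at -2.94, 0.00 and 0.09 and the combined arrays at 0.00, -0.03 and 0.03. The change between times was -3.38 ± 0.67 with all arrays and -2.38 without that array. For Cadps2 it was -3.13 ± 0.66 and -2.12.

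In the other direction, Ifi202b, an interferon-inducible gene, was at 0.30 ± 0.13 at 2 h (adjusted p = 0.0724) and rose by 4.67 at 12 h. Tnc, the matrix protein tenascin C, rose by 0.99 ± 0.19 at 2 h and 4.60 at 12 h, and its 2 probe sets disagreed in direction at 2 h, at -0.40 and 2.38. Dgkk, a diacylglycerol kinase, rose by 0.48 ± 0.09 and then 3.60. Gxylt2, a xylosyltransferase, was at -0.11 ± 0.12 and then rose by 3.06, and Cavin2, a coat protein of caveolae, was at -0.07 ± 0.10 and then rose by 3.03. Serpinb2 went from 5.04 to 8.04 and Nefm from 3.72 to 5.22.

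**Figure D5:**
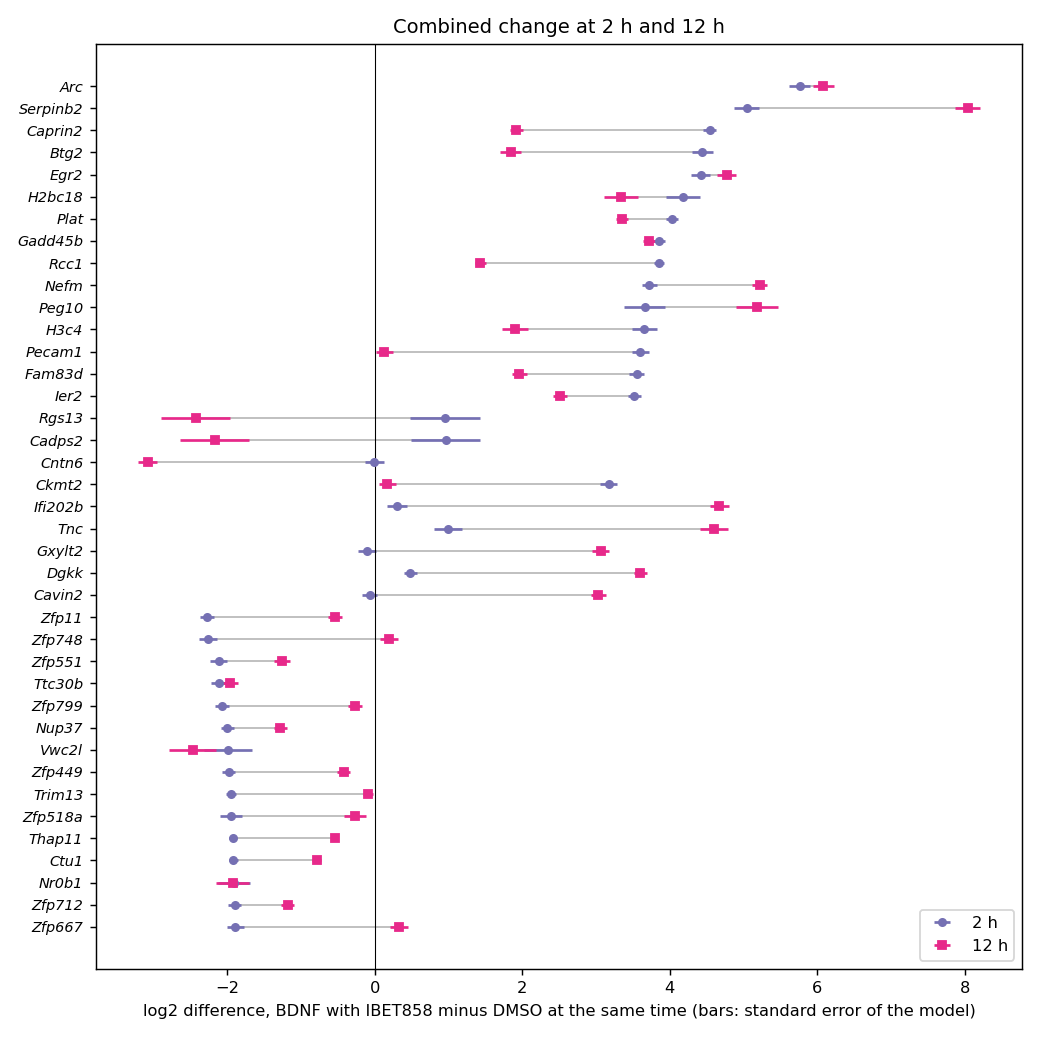
Combined change against DMSO at 2 h (circles) and 12 h (squares) in log2 units for the 15 highest and 15 lowest genes at 2 h and the genes with the largest differences between the times, with the standard error of the model. Arc, Egr2 and Gadd45b are near their 2 h change at 12 h, Pecam1 and Ckmt2 return to near 0, and Zfp748 and Zfp667 go from about -2 to slightly above 0. A like change is not a like level. From 2 h to 12 h the combined arrays of Egr2 went from 2.77, 2.77 and 2.85 to 1.73, 1.83 and 1.74. Its DMSO arrays went from -1.58, -1.54 and -1.75 to -3.48, -2.78 and -2.76. For Gadd45b the arrays of both groups were lower at 12 h as well.

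Several lists differed in count between the times, while the share of all genes called also went from 18.6% to 22.7% higher and from 23.2% to 30.3% lower. Of the 331 zinc finger genes 226 were lower at 2 h and 156 at 12 h, and those higher were 14 and then 67; the median went from -0.48 to -0.18. Zfp748 was at 0.19 at 12 h (adjusted p = 0.236) and Zfp667 rose by 0.33. Glutamate receptors went from 7 higher and 0 lower to 2 and 12 of 20, with a median of -0.40 at 12 h, and GABA genes from 5 and 0 to 1 and 10 of 13, with a median of -0.51. Voltage-gated channels had 25 of 43 and postsynaptic proteins 19 of 31 members lower at 12 h, against 13 and 8 at 2 h, the last a share near that of all genes. Cholesterol synthesis went from 6 of 20 lower to 15. By the test of the difference between the times, the change was lower at 12 h for 20 of the 43 channels, 13 of the 31 postsynaptic, 12 of the 20 glutamate receptor, 9 of the 13 GABA and 13 of the 20 cholesterol genes, against 24.5% of all genes, and higher for 167 of the 331 zinc finger genes, against 21.9%. Activity-induced transcription factors had 31 higher and 1 lower of 34, with a median of 1.08 against -0.01 over all genes at 12 h.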

How the data were processed

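RNA of 24 samples of cultured mouse neurons was measured on Affymetrix arrays. The deposited log2 values came from RMA, per the submitters' processing notes. RMA corrects background, gives every array the same distribution of signals and combines the probes of a set. The table does not state the log base, and a shift in total mRNA per cell cannot be seen after this step. Of 45101 probe sets in the deposited table, all 45101 had a median of 0 over the arrays (tolerance 1e-06), so levels, detection and dim probe sets could not be judged. The number of arrays limits the precision.

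The platform annotation gave 34958 probe sets 1 symbol, 932 several and left 9211 unlisted; 34754 matched RefSeq (GRCm38.p6) by Entrez ID. A gene's value was the mean of the probe sets naming it alone, which gave 18194 genes, 9012 of them with over 1 probe set. limma 3.58.1 in R 4.3.3 fitted a mean for each of 8 groups (16 residual degrees of freedom), with two-sided tests and Benjamini-Hochberg adjustment over all genes. Tested on simulated data for the main comparison with 18194 genes, it called 50 of 50 changes of 1 log2 unit and 38 of 50 of 0.5 log2 units, and 50 and 44 of 50 of the same size downwards. The simulated noise was independent and had the same spread on every array for a given gene. No array stood apart as DMSO replicate 1 does, and only these few genes were shifted. The simulation checks the fit and does not give its power in these data. Alternatives were array weights, arrays centred on their median, the median of a gene's probe sets, only probe sets of the plain _at type, probe sets taken singly, only the 6 or 12 arrays concerned, a robust variance prior, a limit of 0.01, the replicate number as a block and leaving out each array.

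Named genes were the 15 highest and 15 lowest called changes without overlap, the 5 highest and lowest of the interaction and of the difference between times (Gm, Rik, LOC and clone names left out), up to 4 members of each list, and Arc, Bdnf, Ntrk2, Fos, Egr1, Npas4, Myc, Brd2, Brd3, Hexim1 and 1 more that is not reported here. The genes and lists were chosen with earlier results of these data known. Lists are described by counts of called members and medians, to be read against the shares of all genes.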

Additional observations from a re-analysis of the deposited data

Results flagged for a closer look

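For 10 genes the change with both agents at 2 h differed, by the test of the interaction, from the sum of the single changes. It was above the sum by 3.40 for Pecam1, 2.76 for Rcc1, 2.68 for Tmem54, 2.66 for Caprin2 and 2.15 for Zmym1. Below the sum, the interaction was -2.42 for Rrad, -2.38 for Ier5l, -2.04 for Cxcr4, -1.95 for Tmem74 and -1.92 for Rasl11a.

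For 10 genes, Pecam1 among them again, the combined change differed between 12 h and 2 h, by the test of that difference. The change was lower at 12 h by -3.48 for Pecam1, -3.38 for Rgs13, -3.13 for Cadps2, -3.07 for Cntn6 and -3.0 for Ckmt2. Without DMSO replicate 1 at 2 h, Rgs13 was at -2.38 and Cadps2 at -2.12. The change was higher at 12 h by 4.37 for Ifi202b, 3.61 for Tnc, 3.17 for Gxylt2, 3.12 for Dgkk and 3.11 for Cavin2. With 3 arrays a group, the Dixon test for a single outlying value was not applied.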

How the results depend on the processing

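Of 178 recomputed counts of called genes, 161 stayed within 1.5 times the value reported. Of 2638 values of named genes, 2544 either kept call and direction or were uncalled both times, 73 lost the call and 21 gained it. Among values called at least once, 0 reversed. Direction was not compared for values uncalled both times, and some of these changed sign. Cadps2, for example, went from 0.96 to -0.06 at 2 h without DMSO replicate 1. At an adjusted p under 0.01 the combination against DMSO at 2 h had 1886 higher genes, the interaction 320 above and 584 below the sum, and the combination 1325 higher genes against BDNF alone and 751 against IBET858 alone. With array weights, which gave DMSO replicate 1 at 2 h a weight of 0.17, the interaction had 1199 above and 1533 below. Counted over probe sets singly, which are more numerous than genes, the counts were 7089 higher and 8689 lower for the main comparison, 1097 and 1792 for the interaction, 8846 and 8278 for the difference between times, 4572 and 6033 against BDNF alone, and 2719 and 4967 against IBET858 alone. Leaving out 1 array at a time gave 2458 to 3091 higher and 3766 to 4104 lower in the main comparison, 442 to 642 and 771 to 1062 for the interaction, 3780 to 4088 and 4113 to 4681 for the times, 1720 to 2077 and 2387 to 2480 against BDNF alone, and 844 to 1104 and 2124 to 2347 against IBET858 alone.

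Replicate numbers were not taken to pair the samples: deviations of DMSO and combined arrays of the same number at 2 h correlated at -0.050, -0.017 and -0.029. Those of IBET858 and combined arrays correlated at 0.154, 0.12 and 0.049, each array best with its own number, which is a hint from the data and not from the design. The other same-numbered pairs at 2 h lay between -0.141 and 0.071. With the replicate block the main comparison had 3244 higher and 4118 lower genes and the interaction 509 above and 863 below. Of the 131 called named genes, 9 lost the call without DMSO replicate 1: C1qc, Eomes, Gabrb1, Gabrg3, Grik2, Hes5, Myc, Nfil3 and Sox10. Bdnf, Nrp1 (-0.98) and Rps16 (0.32) gained one. A fit on only the 6 arrays compared could not be made for the interaction or the times, nor one on the 12 arrays at 2 h for the times.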

Other observations

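The neighbours in gene order (RefSeq, GRCm38.p6) of the 5 genes furthest above the sum of the single changes were read as well, a choice made after those values were seen. Polg2, the accessory subunit of mitochondrial DNA polymerase, lies 2 genes from Pecam1. It rose by 2.70 ± 0.09 with the combination at 2 h, with an interaction of 2.11 (adjusted p = 4.09e-10), while Milr1, which lies between them, was 0.25 higher with an interaction of -0.18 (adjusted p = 0.522). Ddx5, an RNA helicase next to Polg2, rose by 0.90 with an interaction of 0.46. Ipo8, a nuclear import factor beside Caprin2, rose by 1.25 with an interaction of 1.68 (adjusted p = 1.07e-10). Rnf19b, a ubiquitin ligase beside Tmem54, rose by 1.61 with an interaction of 0.99. Trnau1ap, beside Rcc1, rose by 0.67 with an interaction of 0.75, and Sfpq, a splicing factor beside Zmym1, rose by 0.88 with an interaction of 0.37. Of the 28 measured among the 30 neighbours read, 3 on each side of each gene, the interaction was called above the sum for 8 and below it for 1, against 3.11% and 5.29% of all genes. The 1 below was Dennd5b, which lies 2 genes from Caprin2 (-0.72, adjusted p = 0.00165). Etfbkmt, 3 genes from Caprin2, had an interaction of 0.60 but was 0.60 lower than DMSO with the combination. The interaction did not pass the test for the other 19, among them Phactr4 on the other side of Rcc1 (0.03, adjusted p = 0.932) and Hpca on the other side of Tmem54 (0.51, adjusted p = 0.439).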
